A study of Rattus norvegicus with 46 samples.

Results

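Slc11a2 and Cybrd1, the genes of iron uptake at the luminal face of the duodenal enterocyte, are 2 of the 14217 genes named on the arrays and were read by 3 of the 31042 probe sets on the arrays. They were chosen by gene symbol in the platform annotation, by a rule that uses no measured value but was set with earlier results of these data known. Slc11a2 had 2 probe sets, a brighter one and a dimmer one, and Cybrd1 had 1. All 3 were among the 26517 probe sets that passed the filter on dim signals. The study compared the villus of the duodenum in rats that differed in iron supply and in Slc11a2 genotype, with 1 array for the villus top and 1 for the villus bottom of each of 22 rats. Belgrade rats (b/b, on a Wistar background) were kept on a normal diet (4 rats), given iron for 3 days (4 rats) or given iron for 6 days (3 rats). Wistar rats (+/+) received a low-iron diet with bleeding of 2 to 3 ml every 3 days over 4 weeks, followed in the iron-repleted group by 3 days of 50 µM ferric ammonium citrate in the drinking water (3 rats) and in the iron-deficient group by no iron (4 rats). Control Wistar rats ate a normal diet (4 rats). The Wistar rats entered at 1 month of age, the age of the Belgrade rats is not given in the sources used here, and all rats were fasted overnight. Diet and bleeding were given together, so they cannot be told apart. A further Wistar rat, from a separate experiment, gave 1 array of the lower and 1 of the upper crypt, which entered no test.

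Dietary iron that is not in haem is mostly ferric. Cybrd1 (duodenal cytochrome b) is a brush-border protein that reduces it to the ferrous form. Slc11a2 (DMT1) then carries ferrous iron together with protons across the apical membrane, while ferroportin (Slc40a1), with the ferroxidase hephaestin (Heph), passes it out to the blood. In mice both apical genes are known targets of hypoxia-inducible factor 2 alpha, encoded by Epas1, which is active when enterocyte iron is low. Slc11a2 transcripts from its upstream start, known as exon 1A, are the main ones in the duodenum, and those from the downstream start (exon 1B) are found in many tissues. Belgrade rats carry a missense mutation in Slc11a2 itself, so that the transporter is made but works poorly. The mutation changes a codon, and the level of the transcript therefore checks no rat's genotype.

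The upstream bases of each gene are shown because both genes were high in the same groups of rats and share this known regulator. Each run is the 250 bases before a transcription start in the RefSeq annotation of the rat build GRCr8, on the strand of the gene. Capitals mark the core of the hypoxia-inducible factor motif (ACGTG or GCGTG, either strand) and a TATA box (TATAAA or TATATA, either strand), and the search was made for those letters only.
Cybrd1, chr3:76342343-76342592, plus strand: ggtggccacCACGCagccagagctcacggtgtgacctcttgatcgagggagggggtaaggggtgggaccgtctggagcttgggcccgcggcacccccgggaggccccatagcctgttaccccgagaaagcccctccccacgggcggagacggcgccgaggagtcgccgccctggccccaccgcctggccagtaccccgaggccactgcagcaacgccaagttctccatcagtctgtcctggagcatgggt
Slc11a2 upstream start, chr7:133418940-133419189, minus strand: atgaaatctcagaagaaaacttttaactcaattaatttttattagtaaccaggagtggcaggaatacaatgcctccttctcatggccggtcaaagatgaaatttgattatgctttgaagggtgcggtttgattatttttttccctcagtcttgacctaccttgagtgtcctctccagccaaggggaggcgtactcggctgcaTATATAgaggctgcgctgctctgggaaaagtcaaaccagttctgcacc
Slc11a2 downstream start, chr7:133417789-133418038, minus strand: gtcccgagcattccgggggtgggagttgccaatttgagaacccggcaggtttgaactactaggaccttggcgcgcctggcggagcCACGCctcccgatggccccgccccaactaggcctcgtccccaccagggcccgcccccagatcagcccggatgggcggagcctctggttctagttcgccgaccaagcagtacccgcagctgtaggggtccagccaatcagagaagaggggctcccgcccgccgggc
Cybrd1 held 1 core motif, read on the opposite strand at bases -241 to -237 from the start. The downstream Slc11a2 start held 1 core motif at -165 to -161, also on the opposite strand. The upstream Slc11a2 start held no core motif in this window and 1 TATA box at -48 to -43. Of 33469 windows of the same length in that annotation, 36.7% held the core motif and 16.1% held the TATA box. A match of letters is a description and not a binding site. Which of the starts each Slc11a2 probe set reads was not given in the sources used here.

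Levels below are log2 of the deposited intensity plus 44, after quantile normalisation of the villus arrays. The arrays of control rats 1 and 2 hardly differed in either segment, nor did those of Belgrade rats 1 and 2 on the normal diet (robust SD of their differences 0.144 to 0.177, against 0.229 to 0.717 for other pairs). Each pair was averaged and counted as 1 sample, which left 20 counted samples. The villus label was checked by markers. In the top arrays 17 enterocyte markers averaged 14.54 to 16.01, and in the bottom arrays 11.52 to 14.48. Markers of crypt and cell cycle averaged 9.27 to 11.36 in the tops and 12.11 to 13.23 in the bottoms. The bottom array of iron-repleted rat 3 stood apart, with enterocyte markers at 11.52 and stroma and muscle markers at 15.45, against 14.11 and 14.38 and against 13.23 and 13.29 in the other repleted rats. The bottom array of control rat 3 was like it (12.11 and 15.67). The top array of iron-repleted rat 3 stood apart too, with a robust SD of 0.692 and 0.715 from its group mates, and its brightest deposited value was 20.21 on the log2 scale, against 17.68 to 18.58 on the other arrays. Pancreas markers were high in some bottom arrays, up to 15.80 in iron-deficient and 14.33 in control rats. In Belgrade bottoms they reached 12.58 on the normal diet, 13.02 after 3 days of iron and 12.01 after 6 days. In control rats 1 and 2 they were also raised in the tops (11.12 and 11.14). The crypt arrays did not stand apart from the villus arrays. The lower crypt array was closest to the bottom array of iron-deficient rat 2 (robust SD of the differences 0.204), its crypt and cell-cycle markers averaged 12.62, and those of the upper crypt array averaged 10.66. Other rats of 1 group differed from each other by 0.229 or more, and enterocyte markers averaged 15.39 on the upper crypt array, within the range of the villus tops. The crypt labels are therefore in doubt.

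**Figure D1:**
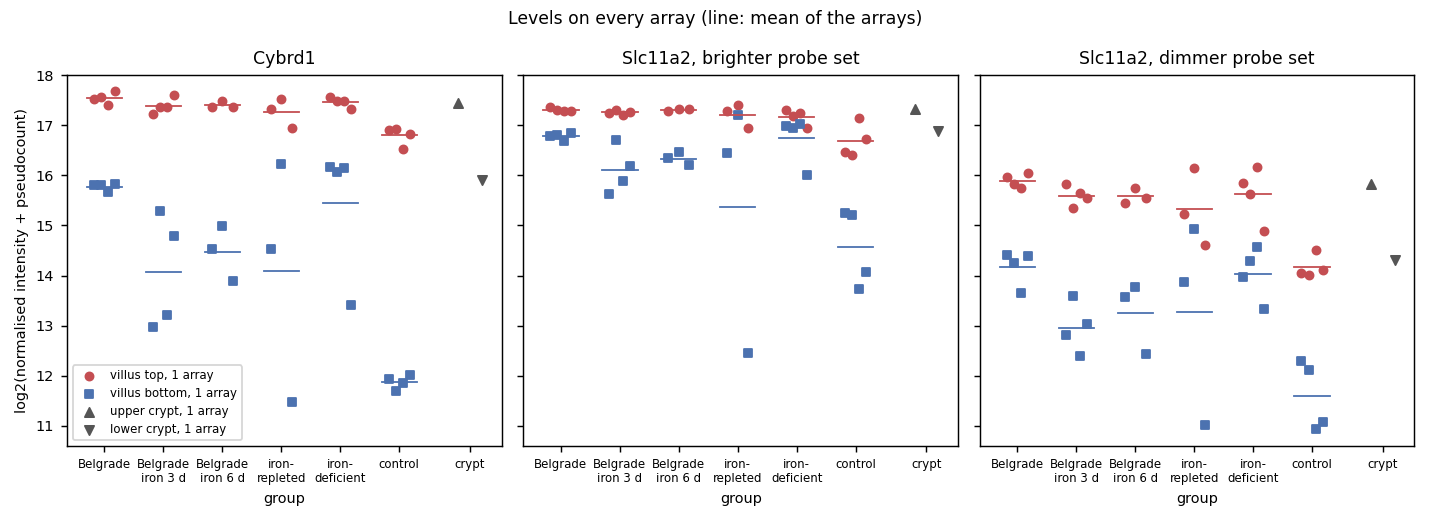
Log2 level of each probe set (vertical axis) on every array, by group (horizontal axis), with 1 point per array and a line at the mean of the arrays. The control bottoms of Cybrd1 lie between 11.70 and 12.01, under all other bottom arrays but that of iron-repleted rat 3 (11.48), while all its top arrays lie at 16.53 or above.

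Iron-deficient rats had more Cybrd1 message than control rats in the villus top and on the mean of both segments, while the larger difference in the bottom did not pass the test. In the villus bottom, Cybrd1 read 16.16, 16.07, 16.14 and 13.42 in the 4 iron-deficient rats, against 11.94, 11.70, 11.86 and 12.01 in the 4 control rats. In the villus top it read 17.57, 17.49, 17.49 and 17.33 in iron-deficient rats, against 16.90, 16.93, 16.53 and 16.83 in control rats. The groups did not overlap in either segment, and iron-deficient rat 4 was the lowest of its group in both. Overlap is a description here and below, because its share over all probe sets was not computed. On the mean of both segments Cybrd1 averaged 16.46 ± 0.72 in iron-deficient rats (SD, n = 4) and 14.33 ± 0.11 in control rats (SD, n = 3), a difference of 2.13 ± 0.43 (SE) or 4.38-fold. This passed the test (limma, Benjamini-Hochberg adjusted p = 0.0350), as did 0.404% of the probe sets tested in that comparison.

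The dimmer Slc11a2 probe set behaved alike. It read 13.96, 14.29, 14.56 and 13.32 in the iron-deficient bottoms, against 12.29, 12.11, 10.93 and 11.07 in the control bottoms. In the tops it read 15.84, 15.62, 16.16 and 14.89 in iron-deficient rats, against 14.05, 14.02, 14.51 and 14.12 in control rats. Again no iron-deficient rat fell within the control range. The difference on the mean of the segments was 2.02 ± 0.39 (SE), or 4.05-fold, with a limma adjusted p of 0.0350. For the brighter Slc11a2 probe set it was 1.40 ± 0.36 (SE), 95% interval 0.65 to 2.15, and did not pass (limma adjusted p = 0.0755). That probe set read 16.99, 16.93, 17.03 and 16.00 in the iron-deficient bottoms, against 15.24, 15.20, 13.74 and 14.08 in the control bottoms, with no overlap, while in the tops the groups overlapped (17.30, 17.18, 17.25 and 16.94 against 16.46, 16.40, 17.14 and 16.72).

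By segment, Cybrd1 and the dimmer Slc11a2 probe set passed in the villus top. The spread between rats was small there (pooled SD 0.17 for Cybrd1, against 1.24 in the bottom). The brighter Slc11a2 probe set differed by 0.41 ± 0.16 in the top (SE) and did not pass (limma adjusted p = 0.264). In the top, Cybrd1 was higher by 0.71 ± 0.16 (SE; limma adjusted p = 0.0290) and the dimmer Slc11a2 probe set by 1.41 ± 0.28 (SE; limma adjusted p = 0.0154), in a comparison where 0.977% of the probe sets passed. In the bottom the differences were 3.55 ± 0.80 for Cybrd1, 2.39 ± 0.68 for the brighter and 2.63 ± 0.60 for the dimmer Slc11a2 probe set (SE), and none passed (limma adjusted p = 0.114, 0.174 and 0.122). No probe set at all passed there (0 called, 0% of those tested, 3449 at an unadjusted p under 0.05). All groups share 1 estimate of the spread, and the pooled SD of Cybrd1 in the bottom was 0.91 over the groups other than the iron-repleted one. With iron-repleted rat 3 left out, an alternative added after the values were seen, the same differences passed for Cybrd1 (limma adjusted p = 0.00687), the brighter (0.00138) and the dimmer Slc11a2 probe set (0.00178), and 1.24% of the probe sets passed. Single rats also decided the calls on the mean of the segments: without any 1 of the control samples or of iron-deficient rats 1, 2 and 3, neither Cybrd1 (adjusted p 0.0655 to 0.138) nor the dimmer Slc11a2 probe set (0.0704 to 0.120) passed, and both passed without iron-deficient rat 4. In the top Cybrd1 likewise passed only without that rat (0.0551 to 0.181 otherwise), and the dimmer Slc11a2 probe set failed without control sample 1-2 (the averaged rats 1 and 2; 0.117), control rat 4 (0.0575) or iron-deficient rats 1 (0.0518) or 2 (0.0604). These top calls were also lost under median centring (adjusted p = 0.117 for Cybrd1 and 0.0746 for the dimmer Slc11a2 probe set) and without the trend (0.157 and 0.111), and that of Cybrd1 with Xist level as a covariate (0.0612).

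Stroma and muscle markers in the bottom arrays averaged 13.17, 13.04, 12.70 and 12.88 in the iron-deficient rats, against 13.14, 13.22, 15.67 and 14.19 in the control rats. Enterocyte markers there averaged 13.91, 13.84, 13.62 and 14.11, against 14.31, 14.30, 12.11 and 13.18. Pancreas markers averaged 7.95 to 15.80 in the iron-deficient bottoms and 7.90 to 14.33 in the control bottoms. Lymphoid markers were lower in the iron-deficient rats without overlap, at 10.60 to 10.79 in the bottoms and 10.38 to 10.82 in the tops, against 11.05 to 11.51 and 11.30 to 11.71 in the control rats. Red cell markers were higher without overlap, at 10.91 to 11.87 in the bottoms and 11.45 to 13.33 in the tops, against 10.48 to 10.66 and 10.72 to 11.02. Markers of Brunner's glands and stomach were dim. They averaged 8.69 to 9.53 in the iron-deficient bottoms and 8.10 to 8.57 in the control bottoms, without overlap, and overlapped in the tops. In the tops, enterocyte markers averaged 14.54 to 15.41 in the iron-deficient rats and 15.46 to 16.01 in the control rats. The part of these markers in the differences was not tested. In these bulk sections, fewer cells of a type and less RNA per cell cannot be told apart.

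Belgrade rats on a normal diet had nearly the same high levels. In the villus bottom Cybrd1 read 15.81, 15.81, 15.66 and 15.83 in the Belgrade rats, against 11.94, 11.70, 11.86 and 12.01 in the control rats. In the top it read 17.51, 17.57, 17.41 and 17.67 in the Belgrade rats, against 16.90, 16.93, 16.53 and 16.83. The Belgrade rats were all above the control rats in both segments and lay close together. The difference on the mean of the segments was 2.33 ± 0.46 (SE), 5.01-fold, 95% interval 1.37 to 3.28, and did not pass (limma adjusted p = 0.127), in a comparison where 0.0113% of the probe sets passed. In the top it was 0.78 ± 0.17 (SE; adjusted p = 0.0592) and in the bottom 3.87 ± 0.85 (SE; adjusted p = 0.676), with 0.0905% and 0.00377% of the probe sets passing.

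Slc11a2 itself, the mutated gene, was also high in the Belgrade rats. The dimmer probe set read 15.96, 15.83, 15.74 and 16.04 in Belgrade tops, against 14.05, 14.02, 14.51 and 14.12 in control tops. In the bottoms it read 14.40, 14.25, 13.65 and 14.39, against 12.29, 12.11, 10.93 and 11.07. Neither segment overlapped. The difference in the top, 1.67 ± 0.30 (SE) or 3.18-fold, passed (limma adjusted p = 0.0234). It failed without control sample 1-2 (0.163), control rat 4 (0.129), or Belgrade rat 3 (0.135) or 4 (0.156), and also under median centring (0.136) and without the trend (0.285). In the bottom it was 2.72 ± 0.65 (SE; adjusted p = 0.721) and on the mean of the segments 2.19 ± 0.42 (SE; adjusted p = 0.0985). The brighter probe set read 16.78, 16.81, 16.68 and 16.85 in Belgrade bottoms, against 15.24, 15.20, 13.74 and 14.08 in control bottoms, a difference of 2.43 ± 0.73 (SE; adjusted p = 0.747). In the tops it read 17.37, 17.30, 17.29 and 17.28 against 16.46, 16.40, 17.14 and 16.72, a difference of 0.54 ± 0.17 (SE; adjusted p = 0.356). With iron-repleted rat 3 left out of the shared spread, the mean over the segments passed for Cybrd1 (adjusted p = 0.00324), the brighter (0.00043) and the dimmer Slc11a2 probe set (0.0005), as did the bottoms (0.0163, 0.00517 and 0.0144), and 0.241% and 0.0566% of the probe sets passed in those comparisons. Some markers differed between these groups without overlap. Crypt and cell-cycle markers averaged 12.11 to 12.54 in Belgrade bottoms and 12.75 to 13.06 in control bottoms. Enterocyte markers averaged 14.83 to 15.44 in Belgrade tops and 15.46 to 16.01 in control tops. Red cell markers averaged 11.30 to 12.80 in Belgrade bottoms and 10.48 to 10.66 in control bottoms, and 11.07 to 12.63 and 10.72 to 11.02 in the tops. Lymphoid markers averaged 10.40 to 11.25 in Belgrade tops and 11.30 to 11.71 in control tops. Goblet cell markers averaged 14.99 to 15.71 in Belgrade tops and 14.31 to 14.80 in control tops. Stroma and muscle markers averaged 12.69 to 13.85 in Belgrade bottoms and 13.14 to 15.67 in control bottoms, with overlap. Pancreas markers there averaged 7.75 to 12.58 and 7.90 to 14.33, also with overlap. Enterocyte and lymphoid markers in the tops and red cell markers in both segments differed in the same direction in the iron-deficient Wistar rats. The part of these markers in the differences was not tested. The comparisons with control rats share the same control samples.

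**Figure D2:**
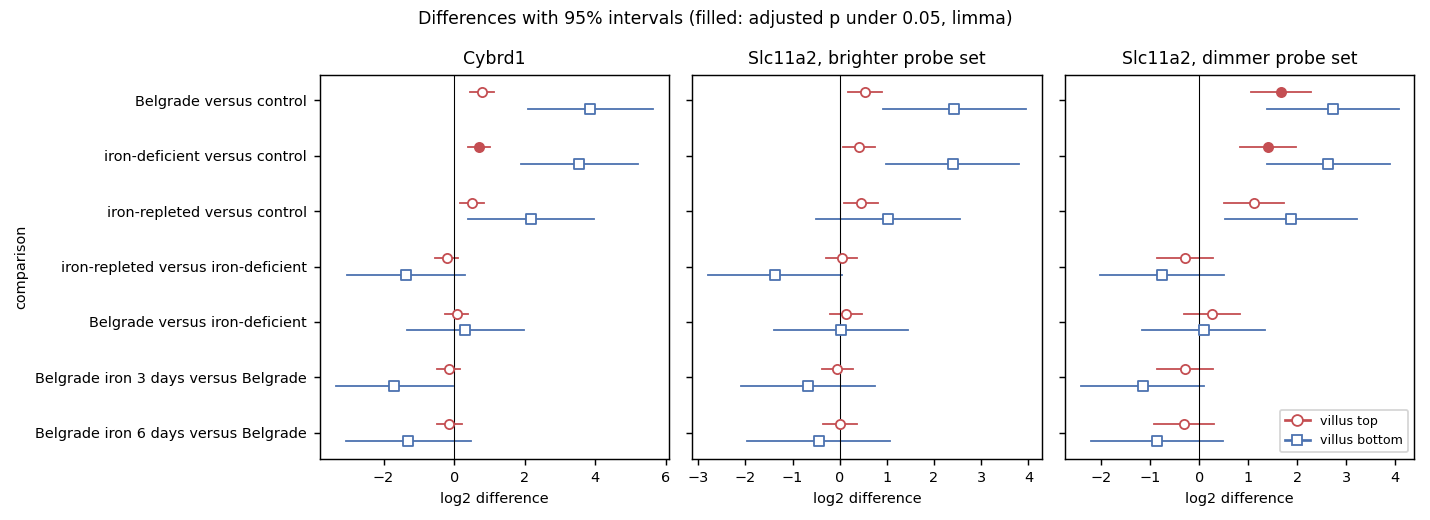
Log2 difference (horizontal axis) with its 95% interval for each comparison (rows), in the villus top (circles) and bottom (squares). Filled symbols passed at a limma adjusted p under 0.05. In the comparisons with control the bottom differences are larger and their intervals wider, as for Cybrd1 in Belgrade rats (3.87 in the bottom, 0.78 in the top).

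Belgrade and iron-deficient rats could not be distinguished in these genes. On the mean of the segments the difference, Belgrade minus iron-deficient, was 0.20 for Cybrd1 (95% interval -0.70 to 1.09), 0.08 for the brighter Slc11a2 probe set (-0.66 to 0.83) and 0.17 for the dimmer one (-0.64 to 0.99). No probe set of any gene passed in that comparison (limma, 0% called, 1219 at an unadjusted p under 0.05), and the intervals leave room for a difference of about 1 unit either way. Without iron-deficient rat 4 the sign turned for all 3 probe sets (-0.16, -0.08 and -0.07).

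After 3 days of iron in the drinking water the iron-repleted Wistar rats were spread over the whole range. Cybrd1 in the bottom read 14.53, 16.23 and 11.48 in iron-repleted rats 1, 2 and 3, against 16.16, 16.07, 16.14 and 13.42 in iron-deficient rats. The dimmer Slc11a2 probe set there read 13.87, 14.93 and 11.02, and the brighter one 16.44, 17.21 and 12.46. Rat 2 was above every iron-deficient rat in all 3 probe sets, and rat 3 was below every control rat in Cybrd1. The bottom array of rat 3 had enterocyte markers at 11.52 and stroma and muscle markers at 15.45, apart from its group mates. Xist averaged 14.27 over the top and bottom arrays of rat 3, against 6.05 and 7.70 in rats 1 and 2. The part of these markers and of Xist in its values was not tested. The difference from iron-deficient rats on the mean of the segments was -0.79 for Cybrd1 (95% interval -1.68 to 0.11), -0.66 for the brighter (-1.41 to 0.08) and -0.53 for the dimmer Slc11a2 probe set (-1.34 to 0.28), and none passed (limma adjusted p = 0.457, 0.453 and 0.593, 0% of the probe sets called, 3385 at an unadjusted p under 0.05). Rat 3 set these values. Without it they were -0.06, 0.13 and 0.22, and in the bottom alone -0.06, 0.09 and 0.37, against -1.36, -1.37 and -0.76 with it.

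Set against control rats, the iron-repleted rats were higher on the mean of the segments by 1.34 for Cybrd1 (95% interval 0.39 to 2.30), 0.74 for the brighter (-0.06 to 1.53) and 1.49 for the dimmer Slc11a2 probe set (0.62 to 2.36), and none passed (limma adjusted p = 0.172, 0.372 and 0.107, with 0.0679% of the probe sets called). In the top, Cybrd1 read 17.33, 17.51 and 16.93 and the dimmer Slc11a2 probe set 15.24, 16.15 and 14.61 in iron-repleted rats, each above the highest counted control sample (16.92 and 14.51). Those top differences were 0.50 and 1.11 (limma adjusted p = 0.157 and 0.0885; 0.207% of the probe sets called), and 0.66 and 1.47 without rat 3 (0.0786 and 0.0175). Without iron-repleted rat 3 the differences on the mean of the segments were 2.07, 1.53 and 2.24 and all passed (limma adjusted p = 0.0151, 0.00152 and 0.00173, with 1.09% called). Without iron-repleted rat 2 they were 0.74, 0.23 and 0.87 and none passed. Some markers differed between these groups without overlap. Goblet cell markers averaged 13.95 to 14.15 in iron-repleted tops and 14.31 to 14.80 in control tops, and 15.40 to 15.755 and 15.83 to 16.06 in the bottoms. In the tops, enterocyte markers averaged 15.29 to 15.42 against 15.46 to 16.01, and markers of Brunner's glands and stomach 9.21 to 9.75 against 7.97 to 8.59. The part of these markers in the differences was not tested.

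In Belgrade rats, whose transporter is impaired, iron feeding went with lower Cybrd1 in the villus bottom, a difference that did not pass the test. At 0, 3 and 6 days of iron the bottoms read 15.81, 15.81, 15.66 and 15.83, then 12.98, 15.28, 13.22 and 14.78, then 14.52, 14.99 and 13.89. Every iron-fed rat lay under every unfed one, and every one lay above the control rats. The share of all probe sets that separate in this way was not computed, so the separation is a description only. The difference from unfed Belgrade rats was -1.70 at 3 days (95% interval -3.37 to -0.03) and -1.30 at 6 days (-3.08 to 0.48), with limma adjusted p of 1.00 and 0.994. In those comparisons 0% and 0.00377% of the probe sets passed, with 1020 at an unadjusted p under 0.05 at 3 days. The tops did not separate: Cybrd1 read 17.51, 17.57, 17.41 and 17.67 at 0 days, 17.22, 17.37, 17.35 and 17.60 at 3 days, and 17.37, 17.49 and 17.37 at 6 days. The dimmer Slc11a2 probe set in the bottom read 14.40, 14.25, 13.65 and 14.39, then 12.81, 13.60, 12.40 and 13.04, then 13.56, 13.78 and 12.44, and the brighter one 16.78, 16.81, 16.68 and 16.85, then 15.62, 16.71, 15.88 and 16.19, then 16.34, 16.46 and 16.20. For the dimmer one the difference was -1.16 at 3 days (-2.42 to 0.10) and -0.86 at 6 days (-2.21 to 0.49), and for the brighter one -0.67 and -0.44, none of which passed. On the mean of the segments Cybrd1 differed by -0.93 at 3 days and -0.72 at 6 days, the brighter Slc11a2 probe set by -0.36 and -0.22 and the dimmer one by -0.73 and -0.59, and none passed (0% called in both; 730 and 1120 probe sets at an unadjusted p under 0.05). Enterocyte markers in these bottoms averaged 14.46, 14.48, 13.52 and 13.83 at 0 days, 13.43, 13.81, 12.52 and 13.11 at 3 days and 13.29, 13.73 and 12.92 at 6 days. These ranges overlapped. Crypt and cell-cycle markers averaged 12.11 to 12.54 at 0 days, 12.29 to 13.11 at 3 days and 12.72 to 13.12 at 6 days, so that the rats at 6 days lay above the unfed ones. Stroma and muscle markers averaged 12.69 to 13.85, 12.64 to 14.18 and 13.56 to 14.74, and 17 of 17 of them were higher at 6 days than at 0 days in the bottom, with a median of 0.81. Xist was high in 1 of 4 rats at 0 days, 1 of 4 at 3 days and 3 of 3 at 6 days. With Xist level as a covariate the 6-day differences in the bottom were -0.96 for Cybrd1, 0.20 for the brighter and -0.28 for the dimmer Slc11a2 probe set. The part of the markers in these values was not tested.

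Whether 3 days of iron acted differently in Belgrade and in iron-deficient Wistar rats was tested as the difference between the changes. It was -0.14 for Cybrd1 (95% interval -1.40 to 1.12), 0.30 for the brighter (-0.75 to 1.36) and -0.20 for the dimmer Slc11a2 probe set (-1.35 to 0.95), and no probe set passed (limma, 0% called, 1956 at an unadjusted p under 0.05). These values turned sign when single iron-repleted rats were left out: without rat 2 they were 0.46, 0.81 and 0.42, and without rat 3 -0.87, -0.49 and -0.95.

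Both genes were higher in the villus top than in the bottom of the same rat, in 22 of 22 rats for each probe set. Over the 6 groups the difference, top minus bottom, was 3.01 ± 0.24 for Cybrd1, 1.22 ± 0.22 for the brighter and 2.20 ± 0.16 for the dimmer Slc11a2 probe set (SE), and all passed (limma adjusted p = 1.07e-08, 0.000124 and 4.79e-09). Of all probe sets 54.2% passed, and 14 of 17 enterocyte markers passed in the same direction, with a median difference of 1.90 against 0.02 over all probe sets. Of the rest, Cdx1 (-0.69) and Cdx2 (-0.80) passed as higher in the bottom, and Mttp (0.29) did not pass. Apolipoprotein A-IV (Apoa4) differed by 4.66 and intestinal fatty acid binding protein (Fabp2) by 2.18, so that Cybrd1 lay between them. Mep1a (3.62) and Treh (3.40) were also above Cybrd1.

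By group mean the step along the villus was steepest in the control rats, though for the dimmer Slc11a2 probe set the iron-fed Belgrade rats came close. Cybrd1 in their tops exceeded the bottoms by 4.86 ± 0.61 (SE), 29.1-fold (limma adjusted p = 2.97e-05, with 24.2% of the probe sets called), the brighter Slc11a2 probe set by 2.42 ± 0.55 (adjusted p = 0.00401) and the dimmer one by 2.82 ± 0.42 (adjusted p = 0.000114). In iron-deficient rats the same steps were 2.02 ± 0.53 (adjusted p = 0.00794), 0.43 ± 0.48 (0.559) and 1.60 ± 0.36 (0.00286), with 29.5% called. In Belgrade rats they were 1.78 ± 0.61 (0.0574), 0.53 ± 0.55 (0.608) and 1.77 ± 0.42 (0.00738), with 16.7% called. The steps of the counted Belgrade and iron-deficient samples did not overlap those of the control samples for Cybrd1 or the brighter Slc11a2 probe set, and did for the dimmer one. The share of all probe sets without such overlap was not computed. Control steps of the brighter probe set ran from 1.21 to 3.40, the highest in control rat 3. The bottom array of that rat had enterocyte markers at 12.11 and stroma and muscle markers at 15.67. In the iron-fed Belgrade rats the Cybrd1 step was 3.32 ± 0.53 at 3 days and 2.94 ± 0.61 at 6 days, and in iron-repleted rats 3.17 ± 0.61 (SE; limma adjusted p = 0.000198, 0.00216 and 0.000782, with 25.4%, 22.7% and 32.6% called). In the same order, the dimmer Slc11a2 probe set stepped by 2.63 ± 0.36, 2.32 ± 0.42 and 2.06 ± 0.42 (SE). The brighter one stepped by 1.15 ± 0.48, 0.97 ± 0.55 and 1.84 ± 0.55 (SE).

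The flatter step was tested as a difference between segments and did not pass. For Cybrd1 it was -2.84 ± 0.81 (SE) in iron-deficient against control rats (95% interval -4.55 to -1.13, limma adjusted p = 0.303, 0% called with 2396 probe sets at an unadjusted p under 0.05) and -3.09 ± 0.86 in Belgrade against control rats (-4.91 to -1.26, adjusted p = 0.664, 0% called, 1711 unadjusted). The brighter Slc11a2 probe set gave -1.98 and -1.89 and the dimmer one -1.22 and -1.05 (adjusted p 0.438 to 0.840). Iron feeding of Belgrade rats for 3 days changed the Cybrd1 step by 1.54 (-0.17 to 3.25, adjusted p = 1.00). In the top arrays Cybrd1 stood at ranks 8 to 128 of 31042 probe sets by brightness and the brighter Slc11a2 probe set at ranks 18 to 152, close to the upper end of the scale, and the dimmer one at ranks 204 to 1485. Whether the scale compresses the bright values was not tested. The median difference between the steps over the enterocyte markers was -1.36 in iron-deficient and -1.65 in Belgrade rats against control rats, and -0.01 and 0.01 over all probe sets.

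**Figure D3:**
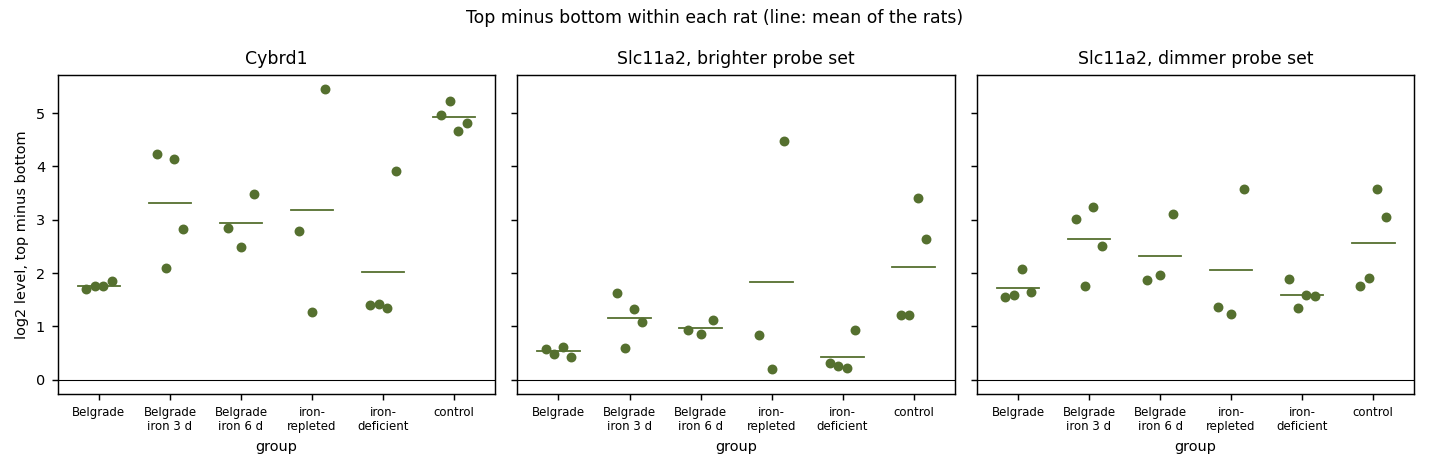
Log2 level in the top minus that in the bottom of the same rat (vertical axis), by group (horizontal axis), with 1 point per rat and a line at the mean of the rats. All points lie above 0, and the control rats are the highest group for Cybrd1, with the single point of iron-repleted rat 3 (5.45) above them.

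Ordered by mean level in the villus bottom, Cybrd1 ran Belgrade 15.77, iron-deficient 15.45, Belgrade with 6 days of iron 14.47, iron-repleted 14.08, Belgrade with 3 days of iron 14.07 and control 11.90. Neighbours in that order overlapped except Belgrade with 3 days of iron and control. For the dimmer Slc11a2 probe set the bottoms ran Belgrade 14.12, iron-deficient 14.03, iron-repleted 13.28, Belgrade with 6 days of iron 13.26, Belgrade with 3 days of iron 12.96 and control 11.40, and again only the last neighbours did not overlap. Of the 17 counted samples outside the control group, 16 lay above every counted control sample in the bottom for each of the 3 probe sets, and iron-repleted rat 3 was the exception. In the top 17 of 17 did so for Cybrd1 and the dimmer and 15 of 17 for the brighter Slc11a2 probe set. For Cybrd1 the margin was narrow: iron-repleted rat 3 read 16.934, against 16.916 in the highest counted control sample and 16.928 in control rat 2 alone.

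The probe sets were also compared with each other for the size of their change. Over 63 exact permutation tests, of 3 pairs of probe sets in 7 comparisons and on the mean, the top and the bottom, the lowest Benjamini-Hochberg adjusted p was 0.286. In a family of this size no adjusted p under 0.05 could be reached, so these tests settle nothing about unequal change. The smallest p such a test can give is 0.0286 with 3 against 4 samples and 0.1 with 3 against 3. The widest gap in a control comparison was in the bottom of Belgrade rats, where Cybrd1 changed by 1.44 more than the brighter Slc11a2 probe set (exact permutation p = 0.1, two-sided). The Slc11a2 probe sets differed by 1.13 in the top of the same rats, with the dimmer one changing more (exact permutation p = 0.1).

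Across the 40 counted arrays Cybrd1 and the dimmer Slc11a2 probe set varied together, with a Pearson r of 0.951, and of 0.853 within the tops and 0.932 within the bottoms. Cybrd1 and the brighter Slc11a2 probe set had an r of 0.894, and of 0.657 within the tops and 0.898 within the bottoms. The Slc11a2 probe sets had an r of 0.898 with each other, and of 0.864 within the tops and 0.924 within the bottoms. These arrays share the position along the villus, the rat and the group, so the values are a description. The probe sets of other genes most like Cybrd1 were 2 of Slc40a1, the iron exporter ferroportin (r = 0.965 and 0.962), and 1 each of Abcg2, an apical efflux transporter (0.955), Ldhd, D-lactate dehydrogenase (0.955), and Nedd9, a scaffold protein of focal adhesions (0.947). Those most like the dimmer Slc11a2 probe set were of Atp7a, the copper exporter (0.955), Abcg2 (0.947), Nedd9 (0.945 for both of its probe sets) and Slc40a1 (0.942). Within the tops alone, the r of these probe sets with Cybrd1 ran from 0.436 for Ldhd to 0.924 for Abcg2. With the dimmer Slc11a2 probe set it ran from 0.649 for Slc40a1 to 0.934 for Atp7a.

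**Figure D4:**
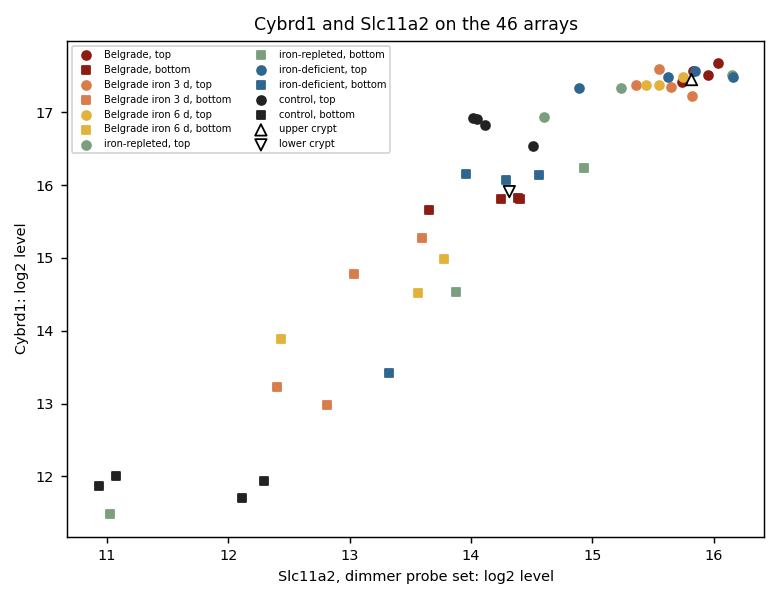
Cybrd1 (vertical axis) against the dimmer Slc11a2 probe set (horizontal axis) as log2 levels, with 1 point for each of 46 arrays, shaped by segment and coloured by group. The 4 control bottoms and that of iron-repleted rat 3 lie apart at the lower left, and the crypt arrays lie among the Belgrade and iron-deficient arrays of the bottom and top.

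Other genes of the iron pathway were described from a list. Of 37 listed genes of iron absorption and its control, 31 had a probe set and 30 were tested. In iron-deficient against control rats 2 were higher on the mean of the segments and 0 lower, with 9 at an unadjusted p under 0.05 and a median over the list of 0.11 against -0.02 over all probe sets, of which 0.404% passed. In the top 1 was higher and 1 lower, with 14 at an unadjusted p under 0.05, and 0.977% of all probe sets passed. The 2 were Hmox1, haem oxygenase, higher by 1.94 ± 0.32 (SE; limma adjusted p = 0.0197), and Egln3, an oxygen sensor that marks hypoxia-inducible factors for decay, higher by 1.18 ± 0.23 (adjusted p = 0.0350). Egln3 was also higher in iron-repleted rats (1.33 ± 0.25, adjusted p = 0.0404) and in Belgrade rats (1.58 ± 0.25, adjusted p = 0.0329) against control rats, where it was 1 of 3 probe sets called. In the top Hmox1 was higher by 1.80 in iron-deficient, 2.04 in iron-repleted and 1.85 in Belgrade rats (adjusted p = 0.002, 0.00417 and 0.00946). Slc39a8, a zinc, manganese and iron importer, was lower in the top, by -1.66 in iron-deficient and -1.63 in iron-repleted rats (adjusted p = 0.0142 and 0.0470), with -0.90 in Belgrade rats (adjusted p = 0.533). Egln3 lost its call under 9 of 17 alternatives in iron-deficient, 8 of 15 in iron-repleted and 8 of 16 in Belgrade rats, with adjusted p up to 0.141, 0.140 and 0.263. Hmox1 lost its call on the mean under 6 of 17 alternatives and in the Belgrade top under 5 of 16, and Slc39a8 in the iron-repleted top under 5 of 15.

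The basolateral exporters did not pass. Slc40a1 differed by 1.00 ± 0.27 in iron-deficient (limma adjusted p = 0.0848) and 1.04 ± 0.29 in Belgrade rats (0.379) on the mean of the segments, without overlap with control rats. Heph differed by 0.72 ± 0.23 (0.149) and 0.54 ± 0.25 (0.823), with overlap. Epas1 differed by 0.52 ± 0.17 (0.153) and 0.61 ± 0.18 (0.517). Of the iron-regulatory proteins, which bind iron-responsive elements in messages such as those of Slc11a2 and Tfrc, Ireb2 differed by 1.02 ± 0.27 in iron-deficient (0.0861) and 0.44 ± 0.29 in Belgrade rats (0.892), and Aco1 by -0.31 ± 0.21 (0.550) and 0.09 ± 0.23 (0.981). Tfrc, the transferrin receptor, differed by 0.16 ± 0.34 (0.878) and 1.05 ± 0.36 (0.650), and by 1.08 ± 0.44 (0.255) and 1.73 ± 0.47 (0.359) on its dimmer probe set. Slc9a3, the sodium-proton exchanger of the same membrane, differed by 0.09 ± 0.24 (0.913) and -0.07 ± 0.25 (0.990), and Slc46a1, a folate transporter also described as a haem carrier, by -0.25 ± 0.47 (0.869) and -0.40 ± 0.51 (0.951).

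Along the villus, 18 of the 30 were higher in the top and 7 in the bottom, where 54.2% of all probe sets passed and 25.5% were higher in the top. Slc46a1 stepped by 3.74, Abcg2 by 3.41, Ireb2 by 3.29, Heph by 2.52, Slc40a1 by 2.01, Egln3 by 1.98 and Hmox1 by 1.83. The vitamin C transporters Slc23a2 and Slc23a1 stepped by 1.75 and 1.65, and Vhl, the ubiquitin ligase subunit that targets hypoxia-inducible factors, by 1.54. The steps of Bmp6, Epas1, Cp and Ankrd37 were 1.34, 1.09, 1.03 and 1.01, and those of Slc39a14, Flvcr1, Slc9a3 and Egln2 0.80, 0.78, 0.55 and 0.53. Tfrc was higher in the bottom (-1.86), as were the iron chaperones Pcbp2 (-1.20) and Pcbp1 (-0.67), the mitochondrial iron importers Slc25a37 (-1.02) and Slc25a28 (-0.34), Aco1 (-0.77) and Egln1 (-0.38). Cybrd1 was thus among the larger steps of the pathway. Among the other ferric reductases, the Cyb561 and Steap families with Frrs1, 8 of 10 listed genes were tested. By limma 0 of the 8 passed in any of the 7 comparisons on the mean of the segments, with 2 at an unadjusted p under 0.05 in iron-deficient and 1 in Belgrade against control rats. Cyb561, a member of the same protein family as Cybrd1, differed by 0.47 in iron-deficient and 0.45 in Belgrade rats (adjusted p = 0.230 and 0.790), against 2.13 and 2.33 for Cybrd1. Along the villus Cyb561d1, Cyb561 and Cyb561a3 were higher in the top, by 0.83, 0.78 and 0.67, and Steap2, Steap3, Cyb561d2 and Frrs1 were higher in the bottom (-1.29, -0.78, -0.77 and -0.45), or 7 of 8 called against 54.2% of all probe sets.

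**Figure D5:**
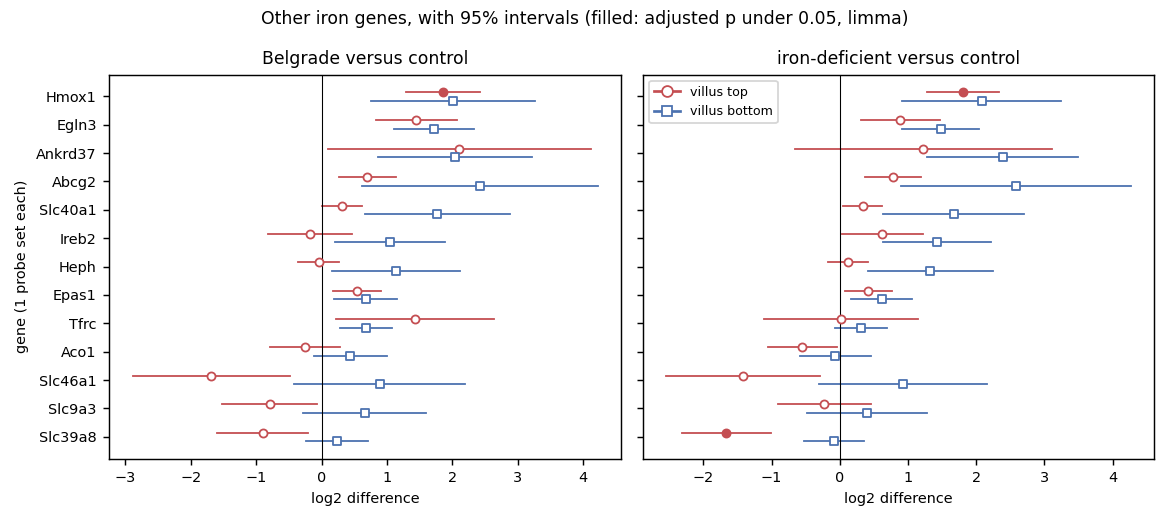
Log2 difference (horizontal axis) with its 95% interval for 13 other iron genes (rows), in Belgrade and in iron-deficient rats against control rats. Circles are the villus top, squares the bottom, and filled symbols passed at a limma adjusted p under 0.05, which were Hmox1 in both tops and Slc39a8 in the iron-deficient tops.

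On the arrays labelled as crypt, Cybrd1 read 17.45 in the upper and 15.91 in the lower crypt, the brighter Slc11a2 probe set 17.32 and 16.87, and the dimmer one 15.82 and 14.32. Each upper crypt value lay above the control tops and each lower crypt value above the control bottoms, within the range of the Belgrade or iron-deficient arrays of that end. With 1 rat and no replicate there is no test.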

How the data were processed

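RNA from cryostat sections of the villus top and bottom was measured on 46 single-colour Affymetrix arrays. The authors deposited 1 intensity per probe set and array on a linear scale. The method that gave these values is not given in the sources used here. From the values, the arrays had been scaled to a trimmed mean of 2489, and 4 arrays (those of control rat 3 and of Belgrade rat 3 after 3 days of iron) to 2867. Array medians ran from 597 to 1179, and the number of arrays limits the precision. Of 31099 rows, 57 control probe sets were left out, and 20826 of the remaining 31042 had 1 gene symbol in the platform annotation, 436 several and 9780 none.

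Values were taken as log2 of intensity plus 44 and quantile normalised over the 44 villus arrays, and the crypt arrays were mapped onto that distribution. Probe sets above the 40th percentile on at least 3 arrays were kept (26517). Rats of a group whose differences had a robust SD under 0.2 were averaged. The mean of a rat's segments, each segment, and top minus bottom were fitted over all 6 groups with limma 3.58.1 in R 4.3.3 (empirical Bayes with a trend), with Benjamini-Hochberg adjustment over all probe sets and a call at 0.05. The fit was tested on simulated data. Same-numbered rats were not paired by the data. Genes other than the members are given by their brightest probe set. Named were the members, the listed iron and reductase genes called in a comparison or along the villus, 8 further iron genes, and the 5 probe sets most correlated with Cybrd1 and with the dimmer Slc11a2 probe set. Enterocyte markers named as examples were chosen after their values were seen. These members and lists were chosen with earlier results of these data known. Alternatives were other scalings, pseudocounts and filters, a fit without trend, Xist level as a covariate, a replicate block, and each sample left out.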

Additional observations from a re-analysis of the deposited data

Results flagged for a closer look

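Iron-deficient rat 4 stood far from the other 3 rats of its group in the villus bottom. Its Cybrd1 level there was 13.42, against 16.07 to 16.16 in the others, and the gap took up 0.967 of the group's range. Its brighter Slc11a2 probe set read 16.00, against 16.93 to 17.03, with a gap of 0.910 of the range. Such gaps were examined in 12 groups of values, and chance alone marks about 1 in 20. Enterocyte markers in that bottom array averaged 14.11 and stroma and muscle markers 12.88, against 13.62 to 13.91 and 12.70 to 13.17 in the others.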

How the results depend on the processing

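Values here are log2 differences on the mean of the segments, with limma adjusted p in parentheses, unless a segment is named. In iron-deficient against control rats Cybrd1 lost its call with Xist level as a covariate (2.02, 0.0642), under median centring (2.30, 0.0693) and without the trend (2.13, 0.118), and so did the dimmer Slc11a2 probe set (1.80, 0.0617; 2.03, 0.0743; 2.02, 0.118). Leaving out single samples gave 1.99 to 2.49 for Cybrd1 and 1.84 to 2.26 for the dimmer probe set. The brighter one gained a call with near-identical rats counted separately (1.33, 0.0264). In Belgrade against control rats that setting brought in Cybrd1 (2.32, 0.00961) and the dimmer probe set (2.14, 0.00943), and the Xist covariate the dimmer one (2.19, 0.0440). In iron-repleted against control rats it brought in the dimmer one (1.42, 0.0477).

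Leaving iron-repleted rat 3 out of the shared spread, chosen after seeing the data, brought in Cybrd1 (2.33, 0.00324), the brighter (1.48, 0.00043) and the dimmer probe set (2.19, 0.0005) in Belgrade rats and the brighter one (1.40, 0.000169) in iron-deficient rats. A replicate block by rat number, with all rats counted separately, gave Cybrd1 2.32 (0.00410), the brighter 1.42 (0.0356) and the dimmer probe set 2.14 (0.00230) in Belgrade rats, the brighter one 1.33 (0.0103) in iron-deficient rats, and Cybrd1 1.30 (0.0454) and the dimmer one 1.35 (0.0192) in iron-repleted rats, all against control rats. Same-numbered rats share only a number: in no comparison did every pair's deviations correlate above 0.1.

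Leaving out single samples gave, in iron-repleted against control rats, 0.74 to 2.07 for Cybrd1, 0.23 to 1.53 for the brighter and 0.87 to 2.24 for the dimmer probe set. In iron-repleted against iron-deficient rats it gave -1.17 to 0.13 for the brighter and -1.15 to 0.22 for the dimmer one, and in the bottom -2.29 to 0.086 and -1.59 to 0.37. In Belgrade against iron-deficient rats the ranges were -0.16 to 0.33, -0.076 to 0.15 and -0.067 to 0.35 for Cybrd1, the brighter and the dimmer probe set. For the difference between the iron feedings they were -0.87 to 0.46, -0.49 to 0.81 and -0.95 to 0.42, and median centring turned the dimmer one to 0.071. With the Xist covariate the brighter probe set in Belgrade rats after 6 days of iron turned to 0.14, and in the bottom to 0.20. The dimmer one went to -0.15 on the mean, against -0.59 as reported, and to -0.28 in the bottom, against -0.86. Xist was high in all 3 of these rats and in 1 of 4 unfed Belgrade rats.

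In the top of Belgrade rats, counting near-identical rats separately brought in Cybrd1 (0.74, 0.00725) and the brighter probe set (0.63, 0.0371), and in the iron-repleted top the dimmer one (1.16, 0.0236).

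Counts of called probe sets moved widely with the setting: 0 to 1317 in iron-deficient, 0 to 91 in Belgrade and 0 to 1606 in iron-repleted against control rats, where 107, 3 and 18 are reported. On the deposited scale the median of all probe sets shifted by -0.14 in iron-deficient and -0.13 in Belgrade against control rats. Where the text gives no cause for a change with a setting, the cause was not tested.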
